A study of Mus musculus with 6 samples.

Results

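The lactate dehydrogenases and the carriers that move lactate and pyruvate across membranes were examined in liver tumors as a set of 9 genes, found in the table by their symbols. They were *Ldha*, *Ldhb* and *Ldhd*, the monocarboxylate transporter genes *Slc16a1*, *Slc16a3* and *Slc16a7*, the transporter chaperone *Bsg*, and the mitochondrial pyruvate carrier genes *Mpc1* and *Mpc2*. The table of the series lists 34745 genes, 13892 of them passed the filter on low counts, and all 9 members were among these. RNA-seq had been carried out on 3 tumors of Prmt3f/f mice (replicates 7, 66 and 71, titled WT) and 3 tumors of Prmt3LKO mice (replicates 92, 93 and 94, titled KO), with 1 library for each tumor. All mice carried floxed *Prmt3*, and the Prmt3LKO mice also carried Alb-Cre, which acts in hepatocytes. Which cells of a tumor lost or kept the gene was not measured here. Mice of both genotypes had received DEN, a liver carcinogen, at 25 mg/kg when 2 weeks old and then repeated doses of 10% CCl4, a hepatotoxin, at 0.5 ml/kg from 6 weeks, and they were killed at 26 weeks. Nothing in the sources used here says that the tumors of a group came from separate mice, so the p-values measure only the spread between these 6 samples.

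Lactate dehydrogenase is a tetramer of A and B subunits that interconverts pyruvate and lactate. Tetramers rich in LDHA are typical of glycolytic tissue and liver, and those rich in LDHB of tissue that oxidizes lactate, such as heart. The SLC16 carriers MCT1, MCT2 and MCT4 move lactate, pyruvate and ketone bodies with a proton, and hepatocytes use lactate from the blood as a substrate for gluconeogenesis. Pyruvate enters mitochondria through a carrier built from MPC1 and MPC2, where it meets pyruvate dehydrogenase and pyruvate carboxylase.

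Between 18440244 and 27976598 reads were counted per tumor, so that a count of 0 would allow up to 0.107 to 0.163 CPM (a count scaled to library size, 3 counts taken as the limit, counting error only). *Prmt3* itself was at 6.60, 8.49 and 10.2 CPM in Prmt3f/f tumors and at 2.80, 2.03 and 3.82 CPM in Prmt3LKO tumors. Its log2 fold change was -1.55 (standard error 0.29, adjusted p = 0.592 in edgeR's quasi-likelihood test over all genes tested), and DESeq2 gave an adjusted p of 0.00357. All 10 hepatocyte markers passed the filter, and *Alb* took 11.0% to 16.1% of the counts of a tumor.

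RefSeq promoter windows of GRCm38.p6, the 250 bases before an annotated start, were matched for 7 of the 9 members by symbol, *Slc16a7* and *Bsg* being those named only. *Ldha* and *Slc16a3* are textbook targets of hypoxia-inducible factor, whose response element holds the core ACGTG or GCGTG. Only the form ACGTG was searched, on both strands as ACGTG or CACGT. The hexamer CACGTG, an E-box that MYC can bind, contains both ACGTG and CACGT, so the searches overlap. The windows of *Ldha* (chr7:46845554-46845803, plus strand), *Slc16a3* (chr11:120948817-120949066, plus strand) and *Ldhb* (chr6:142507958-142508207, minus strand) are shown 5′ to 3′ with matches in capitals, since these genes stand at the top and the bottom of the range of levels.
Ldha: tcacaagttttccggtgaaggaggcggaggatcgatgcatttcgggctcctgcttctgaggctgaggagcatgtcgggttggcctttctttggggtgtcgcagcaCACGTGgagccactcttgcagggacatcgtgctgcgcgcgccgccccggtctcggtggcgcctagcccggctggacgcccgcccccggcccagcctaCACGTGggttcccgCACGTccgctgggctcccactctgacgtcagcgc
Slc16a3: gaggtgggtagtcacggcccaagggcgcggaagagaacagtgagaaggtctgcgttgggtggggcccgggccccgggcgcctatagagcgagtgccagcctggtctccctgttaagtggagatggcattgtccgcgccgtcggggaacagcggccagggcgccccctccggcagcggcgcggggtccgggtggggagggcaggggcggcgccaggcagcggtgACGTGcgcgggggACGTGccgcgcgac
Ldhb: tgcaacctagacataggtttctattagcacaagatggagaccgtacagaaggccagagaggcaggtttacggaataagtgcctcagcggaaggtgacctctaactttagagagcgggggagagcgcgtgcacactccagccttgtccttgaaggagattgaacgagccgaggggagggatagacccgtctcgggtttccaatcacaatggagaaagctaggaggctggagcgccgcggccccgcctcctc
The *Ldha* window held 3 separate sites, beginning 145, 48 and 34 bases before the start, and *Slc16a3* held 2, at 27 and 14 bases. The windows of *Slc16a1* (chr3:104638414-104638663, plus strand) and *Ldhd* (chr8:111630337-111630586, minus strand) held 1 site each, at 200 and 139 bases. No match to ACGTG or CACGT stood in the window of *Ldhb*, in a second window of *Ldha*, or in those of *Mpc1* and *Mpc2*. The form GCGTG was not counted, and on either strand it does stand in windows of all these genes. In all, 4 of 9 member windows held a match, where 16.6% of 32851 windows of this length did. CACGTG stood in the windows of *Ldha*, *Slc16a1* and *Ldhd*, where 6.02% of all these windows held it. For *Slc16a1* and *Ldhd* it made up the only site.

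The members spanned a wide range of levels, with *Ldha* and *Bsg* at the top and *Slc16a3* at the bottom. By mean FPKM (reads scaled to gene length and library size, as deposited) over the 6 tumors, *Ldha* had the highest level at 141 FPKM, with a range of 115 to 164, followed by *Bsg* at 113 FPKM (89.0 to 149). Next came *Slc16a1* at 20.97, *Mpc2* at 13.1, *Slc16a7* at 11.9, *Ldhd* at 8.64 and *Mpc1* at 6.05 FPKM. *Ldhb* had 1.40 FPKM (0.501 to 2.64) and *Slc16a3* 0.278 FPKM (0.0868 to 0.625). Only 2 steps in this order had ranges that did not meet, from *Bsg* to *Slc16a1* and from *Mpc1* to *Ldhb*, and at the other 6 steps the ranges of the neighbors overlapped. Within single tumors, *Ldha* stood above *Bsg*, *Slc16a1* above *Mpc2* and *Ldhb* above *Slc16a3* in all 6 by FPKM. *Mpc2* stood above *Slc16a7* in 4 tumors, *Slc16a7* above *Ldhd* in 5, and *Ldhd* above *Mpc1* in 4. Parts of this order depended on the gene length used. The length behind the deposited FPKM was compared with the sum of all distinct annotated exons, with overlapping bases counted more than once. It matched within 0.1% in 87.9% of 6673 genes with the same span in the table and in GENCODE M21. For *Bsg* the deposited length was 3831 bases, equal to this sum, where the exons cover 1814. For *Ldha* it was 4589 bases, which did not match the sum of 6710, and the exons cover 3310. Per kilobase of distinct exon sequence (GENCODE M21, a scale added after the values were seen), *Bsg* had 238 CPM and *Ldha* 196 CPM, with *Bsg* the higher in 5 of 6 tumors. *Slc16a7* moved from above to below *Ldhd* and *Mpc1* on that scale, at 4.73 CPM against 14.4 and 12.0 CPM. Its exons cover 11839 bases there where the deposited FPKM implies 4686, and its span in GENCODE M21 differs from that in the table.

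**Figure D1:**
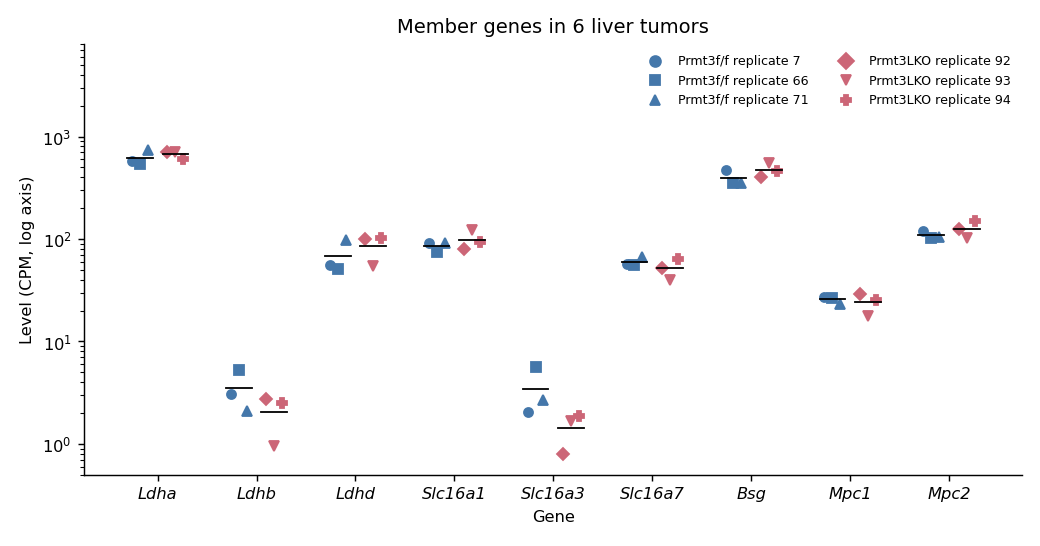
Level of each of the 9 members in the 6 tumors, in TMM-scaled CPM on a log axis, with symbols for single tumors and black bars for the mean of 3 tumors. CPM do not correct for gene length, so levels are to be compared between tumors and not between genes. *Slc16a3* is the 1 gene whose Prmt3LKO points all lie below its Prmt3f/f points.

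None of the 9 members was called between genotypes, by an adjusted p under 0.05 in edgeR and a fold of 2 or more, or of 0.5 or less, and neither was any other gene (0% of 13892 in each direction; DESeq2 called 43 lower and 9 higher, none of them a member). At an unadjusted p under 0.05, 1 of the 9 members was lower in Prmt3LKO tumors and 0 were higher, beside 4.37% and 2.20% of all genes tested. Groups did not overlap for the same 1 member, lower in Prmt3LKO tumors, beside 6.60% of all genes lower and 5.56% higher. The log2 fold change was below 0 for 4 members and above 0 for 5, with a median of 0.12 beside 0.00037 for all genes tested. The changes below are log2 fold changes of Prmt3LKO against Prmt3f/f from that fit, p-values are edgeR's with Benjamini-Hochberg adjustment over all genes tested, and coordinates are those of the deposited table on GRCm38.

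*Ldha* (chr7:46841475-46855627, plus strand), which encodes the A subunit, was among the steadier members. Its level was 580.2, 540.9 and 742.6 CPM in Prmt3f/f replicates 7, 66 and 71 and 699.5, 712.4 and 607.8 CPM in Prmt3LKO replicates 92, 93 and 94. The groups overlapped, the highest tumor being of Prmt3f/f, and the highest stood only 1.37 times above the lowest. The means of 621.2 ± 106.9 and 673.2 ± 57.0 CPM (SD, n = 3 each) gave a log2 fold change of 0.12 (standard error 0.19, 95% interval -0.34 to 0.57, edgeR adjusted p = 0.968). The ends of this interval are folds of 0.793 and 1.48. GENCODE M21 holds 25 processed pseudogenes with long stretches close to *Ldha*. The 2 with rows in the table had at most 27 counts in a tumor, beside 11595 or more for *Ldha*. The other copies have no row and could have taken some of its reads.

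*Ldhb* (chr6:142490249-142507957, minus strand), for the B subunit, was close to the low end, with 21 to 114 counts in a tumor. Its level was 3.05, 5.32 and 2.07 CPM in Prmt3f/f tumors and 2.74, 0.947 and 2.51 CPM in Prmt3LKO tumors. Prmt3f/f replicate 66 was the highest and Prmt3LKO replicate 93 the lowest, while the other tumors overlapped. The log2 fold change was -0.75 (standard error 0.50, 95% interval -1.91 to 0.40, edgeR adjusted p = 0.884). It was -0.31 without Prmt3f/f replicate 66 and -0.40 without Prmt3LKO replicate 93, and reached -1.02 without Prmt3f/f replicate 71. The 1 processed pseudogene close to it, Gm5514, could have taken some of its reads.

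Of the message for the A and B subunits, that of the A subunit made up nearly all in every tumor. Among the FPKM of *Ldha* and *Ldhb*, *Ldha* took 98.8%, 97.8% and 99.4% in Prmt3f/f tumors and 99.1%, 99.7% and 99.0% in Prmt3LKO tumors. The ratio of *Ldha* to *Ldhb* was 81.7, 43.6 and 154 against 109, 323 and 104, and the groups overlapped. Its log2 mean was 6.35 ± 0.91 (SD, n = 3) in Prmt3f/f and 7.27 ± 0.92 (SD, n = 3) in Prmt3LKO tumors.

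*Ldhd* (chr8:111623785-111630374, minus strand) encodes the mitochondrial enzyme that oxidizes D-lactate. Its level was 56.2, 50.4 and 97.7 CPM in Prmt3f/f tumors and 99.6, 54.6 and 102.0 CPM in Prmt3LKO tumors. Each group thus held tumors near both ends of the range, and the log2 fold change was 0.33 (standard error 0.32, 95% interval -0.43 to 1.08, edgeR adjusted p = 0.942). *Ldhd* shares 2246 exon bases with *Znrf1* on the other strand, which had 145 to 244 counts in a tumor, and whether strand was used in counting is not stated.

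*Slc16a3* (chr11:120948480-120960868, plus strand), for MCT4, the carrier known for lactate export from glycolytic cells and activated leukocytes, had the lowest level and the largest fold change of the members. It had 44, 120 and 76 counts in Prmt3f/f tumors and 14, 37 and 37 in Prmt3LKO tumors. This made 2.03, 5.60 and 2.67 CPM against 0.800, 1.67 and 1.86 CPM, so the groups did not overlap, although the gap between the nearest tumors was small. The log2 fold change was -1.24 (standard error 0.49, 95% interval -2.37 to -0.11), with p = 0.0359 before and 0.729 after adjustment in edgeR, and the exact permutation test gave p = 0.1, the smallest that 3 against 3 allow. The value leaned on Prmt3f/f replicate 66, without which it was -0.70 with an unadjusted p of 0.173 in edgeR. On FPKM with a pseudocount of 1 it was -0.25, since the level lies below the pseudocount. Neither this fold change nor that of *Ldha* passed the adjusted limit. Any relation of them to the 2 sites in its promoter window and the 3 in that of *Ldha* was not tested.

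Marker genes of several leukocytes were also lower in Prmt3LKO tumors at an unadjusted p, and their part in the value of *Slc16a3* was not tested. The counts below stand beside 4.37% of all genes tested that were lower and 2.20% that were higher at an unadjusted p under 0.05 in edgeR. Of 8 tested macrophage markers, 6 had an unadjusted p under 0.05 in edgeR, all lower, and their summed level was 464 to 1046 CPM in Prmt3f/f and 313 to 445 CPM in Prmt3LKO tumors. Of 8 T cell markers 6 were lower on this count (25.7 to 32.4 CPM in sum against 5.77 to 16.2), and so were 4 of 5 tested neutrophil markers (13.6 to 27.7 against 7.09 to 9.74) and 0 of 5 B cell markers (6.81 to 7.76 against 4.63 to 7.31). No marker of these lists was called at an adjusted p, and none was at 0 in all tumors. In whole tumor tissue, fewer cells of a type and less RNA per cell cannot be told apart. The other lists had 0 of 10 hepatocyte, 0 of 7 stellate cell and fibroblast and 0 of 6 dividing cell markers at an unadjusted p under 0.05. Endothelium had 1 of 6 (higher), cholangiocyte 1 of 5 (lower), erythroid 4 of 5 tested (lower) and kidney 3 of 3 tested (higher), while no skeletal muscle marker passed the filter.

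**Figure D2:**
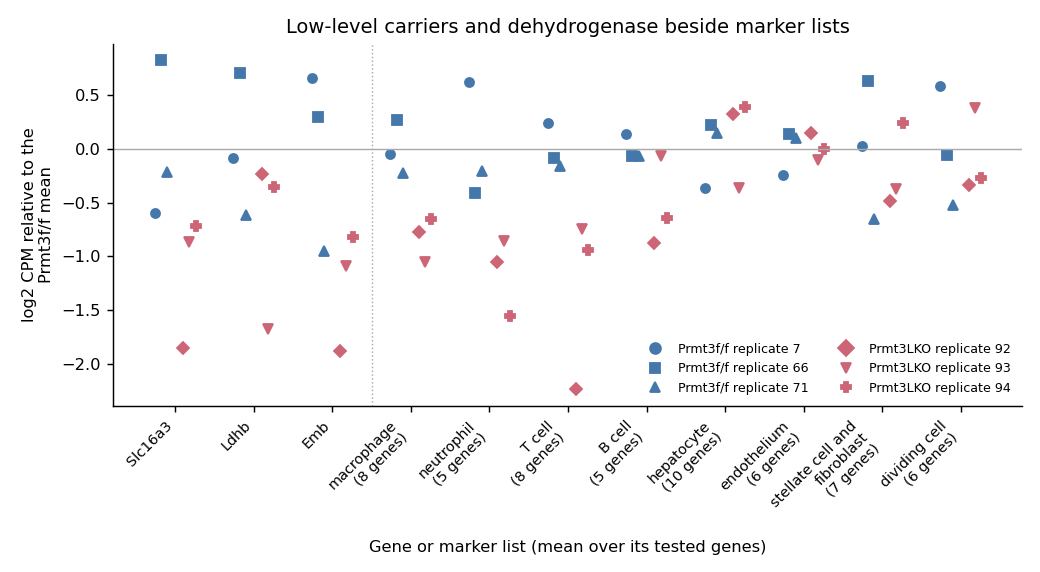
*Slc16a3*, *Ldhb* and the chaperone gene *Emb* beside marker lists in each tumor, as log2 CPM relative to the mean of the 3 Prmt3f/f tumors, averaged over the tested genes of each list. Symbols are single tumors. The 3 Prmt3LKO tumors lie below the 3 Prmt3f/f tumors for *Slc16a3* and for the macrophage, neutrophil and T cell lists, and the groups overlap for *Ldhb* and for the hepatocyte, endothelium and dividing cell lists.

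*Slc16a1* (chr3:104638668-104658462, plus strand), for MCT1, the widespread carrier that works in both directions, was the most abundant of the SLC16 members. Its level was 91.4, 74.9 and 92.3 CPM in Prmt3f/f tumors and 80.4, 122.2 and 93.7 CPM in Prmt3LKO tumors. The groups overlapped, Prmt3LKO replicate 93 being the highest, and the log2 fold change was 0.20 (standard error 0.19, 95% interval -0.25 to 0.64, edgeR adjusted p = 0.939). *Slc16a7* (chr10:125226464-125328963, minus strand), for MCT2, a carrier of high affinity, was at 56.5, 56.3 and 67.0 CPM against 52.2, 39.6 and 64.3 CPM. Here Prmt3LKO replicate 93 was the lowest, and the log2 fold change was -0.20 (standard error 0.20, 95% interval -0.66 to 0.25, edgeR adjusted p = 0.938). The ratio of *Slc16a3* to *Slc16a1* by FPKM was 0.0112, 0.0378 and 0.0147 in Prmt3f/f tumors and 0.00504, 0.00691 and 0.0100 in Prmt3LKO tumors, so the groups did not overlap, which follows the values of *Slc16a3*.

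*Bsg* (chr10:79704491-79711969, plus strand) encodes basigin, which MCT1 and MCT4 need to reach the plasma membrane. Its level was 474.3, 349.2 and 351.0 CPM in Prmt3f/f tumors and 403.9, 550.0 and 462.5 CPM in Prmt3LKO tumors. The groups overlapped through Prmt3f/f replicate 7, and the log2 fold change was 0.27 (standard error 0.21, 95% interval -0.21 to 0.75, edgeR adjusted p = 0.905). Across the 6 tumors, *Bsg* and *Slc16a1* had a Pearson r of 0.795 in log2 CPM (exact permutation p = 0.0458, adjusted over 4 pairs 0.122) and a Spearman rho of 0.714 (exact permutation p = 0.136, adjusted 0.272). Without Prmt3LKO replicate 93 and Prmt3f/f replicate 66, the tumors farthest from the median of *Slc16a1*, r was 0.192, so the relation rested on these. *Emb*, for embigin, the chaperone known for MCT2, was at 6.74, 5.23 and 2.14 CPM in Prmt3f/f and at 1.09, 1.94 and 2.36 CPM in Prmt3LKO tumors. The groups of *Emb* overlapped, at -1.38 on the log2 scale (standard error 0.48), with an adjusted p of 0.667 in edgeR against 0.0212 unadjusted.

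*Mpc1* (chr17:8282904-8297661, plus strand) and *Mpc2* (chr1:165460637-165481214, plus strand), whose products form the pyruvate carrier of the inner mitochondrial membrane as a pair, did not move past the spread either. *Mpc1* was at 27.4, 26.8 and 23.2 CPM in Prmt3f/f tumors and at 28.9, 17.9 and 25.3 CPM in Prmt3LKO tumors, and its log2 fold change was -0.10 (standard error 0.20, 95% interval -0.56 to 0.36, edgeR adjusted p = 0.975). Its sign rested on Prmt3LKO replicate 93, the lowest tumor, without which the value was 0.07. *Mpc2* was at 118.6, 102.1 and 105.2 CPM against 124.5, 101.7 and 151.4 CPM, and its log2 fold change was 0.21 (standard error 0.18, 95% interval -0.21 to 0.63, edgeR adjusted p = 0.918). The *Mpc1* to *Mpc2* ratio by FPKM was 0.502, 0.571 and 0.480 in Prmt3f/f tumors and 0.504, 0.382 and 0.364 in Prmt3LKO tumors. These groups overlapped through replicate 92, and the log2 ratio differed by -0.32. GENCODE M21 also holds 3 processed pseudogenes with stretches close to *Mpc1* and 2 close to *Mpc2*, none with deposited counts. Such copies could have taken some reads of these genes.

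**Figure D3:**
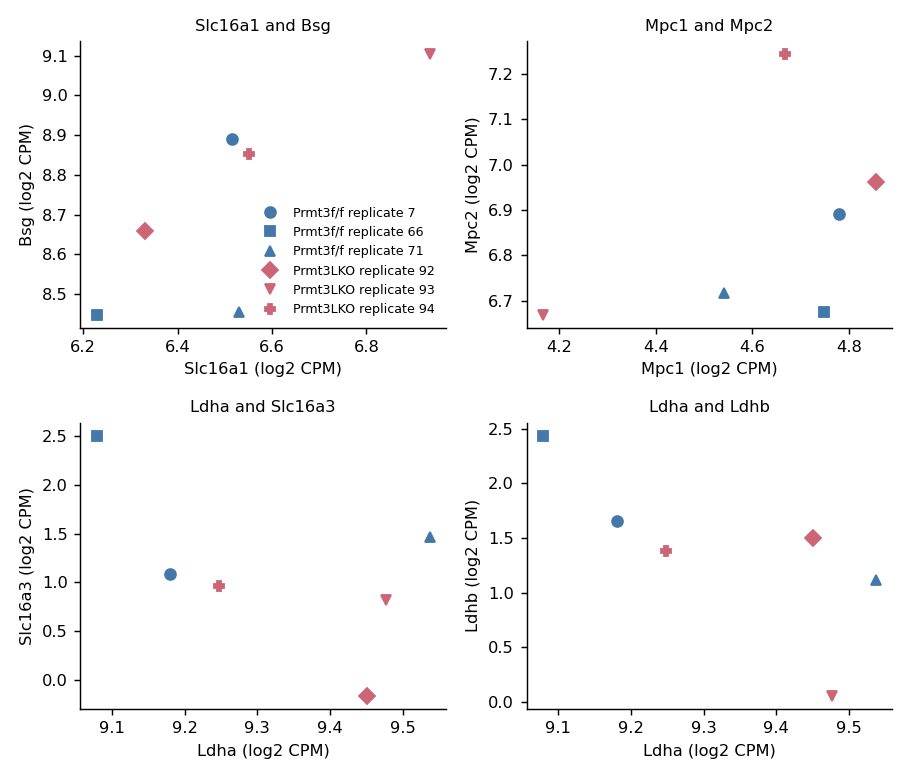
Levels of 4 pairs of members across the 6 tumors, in log2 CPM on both axes, with symbols for single tumors. All points share library scaling, and in the panel of *Slc16a1* and *Bsg* the 2 tumors at the ends of the horizontal axis, Prmt3f/f replicate 66 and Prmt3LKO replicate 93, carry the relation.

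The other 3 pairs gave no relation that passed the adjustment over the 4 pairs. *Mpc1* and *Mpc2* had a Pearson r of 0.435 (exact permutation p = 0.394, adjusted 0.394) and a Spearman rho of 0.543 (exact permutation p = 0.297, adjusted 0.396), and r was -0.433 without Prmt3LKO replicate 93 and Prmt3f/f replicate 71. For *Ldha* and *Ldhb*, r was -0.751 (exact permutation p = 0.0611, adjusted 0.122) and rho was -0.886 (exact permutation p = 0.0333, adjusted 0.133), and for *Ldha* and *Slc16a3*, r was -0.567 (exact permutation p = 0.251, adjusted 0.335) and rho was -0.371 (exact permutation p = 0.497, adjusted 0.497). Without Prmt3f/f replicates 66 and 71, r was -0.652 and -0.658 for these pairs of *Ldha*. With 3 tumors in each genotype, r within a genotype was not computed, so these values hold the difference between genotypes together with the spread within them.

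**Figure D4:**
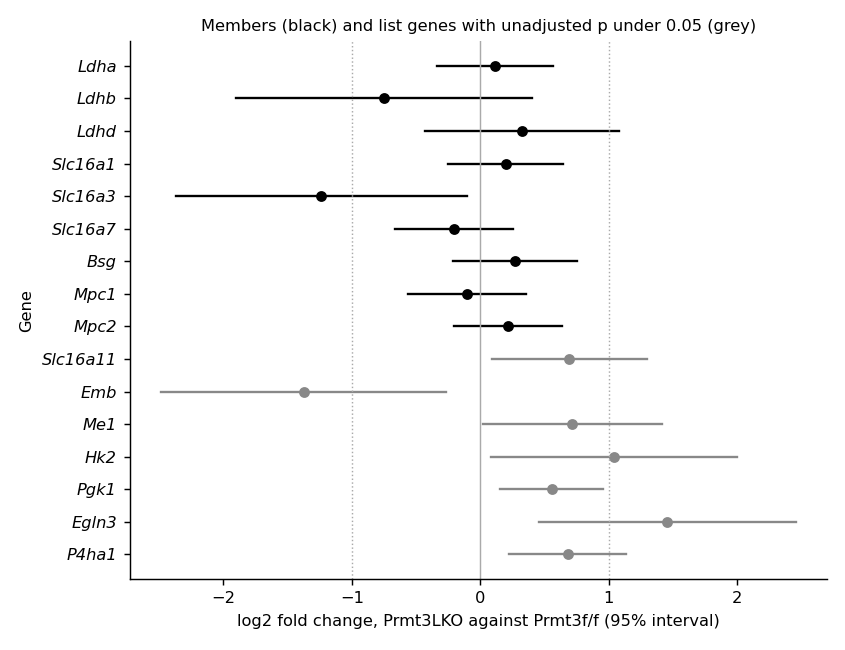
Log2 fold changes of Prmt3LKO against Prmt3f/f tumors with their 95% intervals from edgeR, for the 9 members in black and for the list genes with an unadjusted p under 0.05 in grey. Dotted lines mark a fold of 0.5 and of 2. Among the members, only the interval of *Slc16a3*, from -2.37 to -0.11, leaves out 0.

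Genes next to the members in lactate and pyruvate metabolism were counted in 3 lists, in each of which 0 genes were called at an adjusted p in either direction. Of the 13 other genes of the SLC16 and LDH families, 8 were tested, with a median log2 fold change of -0.04. At an unadjusted p under 0.05 in edgeR 0 were lower and 1 was higher, beside 4.37% and 2.20% of all genes tested. The 1 gene was *Slc16a11*, a carrier of monocarboxylates in liver, at 5.41 ± 1.49 CPM (SD, n = 3) in Prmt3f/f and 8.72 ± 1.54 CPM (SD, n = 3) in Prmt3LKO tumors, and its groups did not overlap. Its log2 fold change was 0.69 (standard error 0.26), with an adjusted p of 0.693 in edgeR against 0.0298 unadjusted. Among the more abundant genes of this list was *Slc16a12*, a creatine carrier, with a mean of 93.9 CPM in both groups. The testis gene *Ldhc* had 0 counts in every tumor.

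Of 23 partners of lactate and pyruvate, 20 were tested, with a median log2 fold change of 0.05. At an unadjusted p under 0.05, beside 4.37% lower and 2.20% higher of all genes tested, 1 was lower (*Emb*) and 1 higher. The latter was *Me1*, the malic enzyme that yields pyruvate and NADPH in the cytosol, at 60.1 ± 19.2 CPM against 98.7 ± 31.9 CPM (SD, n = 3 each), with overlapping groups. Its log2 fold change was 0.72, with an adjusted p of 0.750 in edgeR against 0.0456 unadjusted. The most abundant partners were *Pck1*, the cytosolic enzyme that makes phosphoenolpyruvate for gluconeogenesis, and *Gpt*, an alanine aminotransferase. Their log2 fold changes were -0.40 and 0.25, with adjusted p of 0.968 and 0.938 in edgeR.

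The list of hypoxia-inducible genes, to which *Ldha* and *Slc16a3* would belong by textbook knowledge, had 17 of 18 genes tested. Of these, 14 had a log2 fold change above 0, and the median was 0.37 beside 0.00037 for all genes tested. The mean log2 CPM of the list in each tumor, relative to the Prmt3f/f mean, overlapped between groups. It was -0.055, -0.128 and 0.183 in Prmt3f/f replicates 7, 66 and 71. In Prmt3LKO replicates 92, 93 and 94 it was 0.036, 0.748 and 0.413. At an unadjusted p under 0.05 in edgeR, 4 were higher and 0 were lower, beside 2.20% and 4.37% of all genes tested. The number higher was 2 without Prmt3f/f replicate 66. *Egln3*, a prolyl hydroxylase that acts on hypoxia-inducible factor, was at 13.6 ± 5.07 CPM against 37.3 ± 17.1 CPM (SD, n = 3 each). Its log2 fold change was 1.45, with an adjusted p of 0.606 in edgeR against 0.0103 unadjusted. *P4ha1*, a collagen prolyl hydroxylase, and *Pgk1*, a glycolytic kinase, had log2 fold changes of 0.68 and 0.56. *Tpi1*, a glycolytic enzyme, had 0.31, with an unadjusted p of 0.104 in edgeR. Groups did not overlap for 4 genes of this list, *Egln3*, *P4ha1*, *Pgk1* and *Tpi1*, all higher in Prmt3LKO tumors, beside 5.56% of all genes tested. *Hk2*, the hexokinase typical of tumors, had 1.04, with overlapping groups. The value of *Ldha*, 0.12, lay below the median of this list, and that of *Slc16a3*, -1.24, lay below all of its values, which ran from -0.42 to 1.45.

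**Figure D5:**
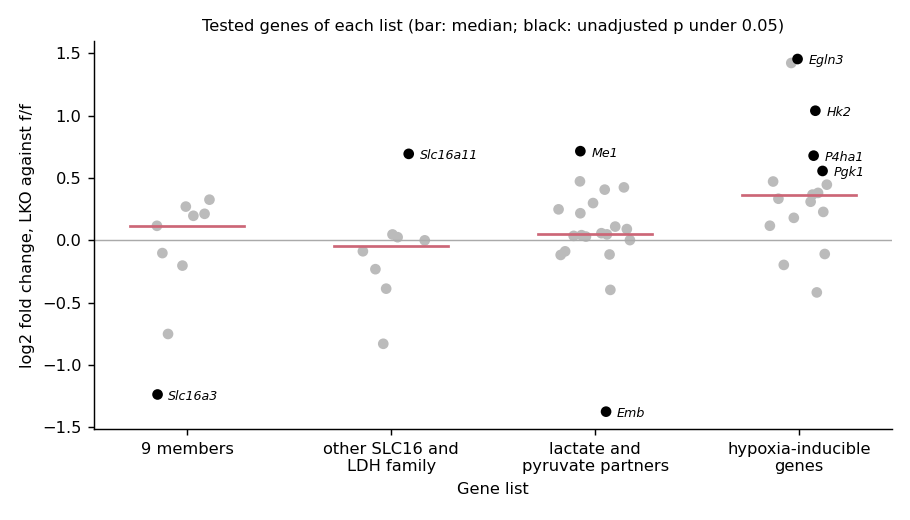
Log2 fold changes of Prmt3LKO against Prmt3f/f tumors for the tested genes of 4 lists, with 1 point for each gene, red bars for the medians and black points with names where the unadjusted p was under 0.05. The medians are 0.12 for the 9 members, -0.04 for the other SLC16 and LDH family genes, 0.05 for the partners and 0.37 for the hypoxia-inducible genes.

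The genes whose pattern over the 6 tumors was most like that of *Ldha* were *Uspl1*, *AI597479* and *Spg7*, a mitochondrial protease gene, with a Pearson r of 0.995, 0.980 and 0.969 in log2 CPM. They were the highest of 7986 genes with a mean of at least 10 CPM, 38 of which had an r over 0.9, and a choice from so many genes over 6 tumors is a description with no test.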

How the data were processed

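Messenger RNA of 6 tumors was sequenced as paired ends. The submitters' processing notes name bcl2fastq 2.19, HISAT2 2.0.4, StringTie 1.3.0 and GRCm38, while the counting tool, annotation and strand setting are not given in the sources used here. The authors deposited, for each gene and tumor, a whole-number count that is not normalized and an FPKM value. All value columns were used (0 left out).

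Counts were filtered with filterByExpr (minimum count 10, minimum total count 15), scaled by TMM and compared by edgeR 4.0.16 (quasi-likelihood F-test, R 4.3.3), with Benjamini-Hochberg adjustment over 13892 genes. Log2 CPM had a prior count of 2. Single genes and pairs also had exact two-sided permutation tests (scipy 1.17.1). The test was tried on simulated data. The study gives the limits used for calls but no test across genes. Near copies were searched with BLAST 2.17.0 at 85% identity over 200 bases.

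The members, gene lists and marker lists were chosen with earlier results of these data known. Named genes were the members and *Prmt3*, of each of 3 pathway lists those with an unadjusted p under 0.05 and the 2 with the highest mean FPKM, and the 3 genes most like *Ldha*. Of these, 1 gene is not reported here. Alternatives were DESeq2 1.42.0, library size without TMM, no filter, a mean of at least 1 CPM, edgeR's exact test, limma-voom (limma 3.58.1), FPKM with pseudocounts of 1 and 0.1, and each tumor left out. Other experiments of the study were not analysed here.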

Additional observations from a re-analysis of the deposited data

How the results depend on the processing

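No paired analysis was possible because the groups share no replicate numbers. Over 14 alternatives each, the 9 members kept their direction and stayed short of an adjusted p of 0.05, except *Mpc1*, whose log2 fold change turned to 0.073 without Prmt3LKO replicate 93 (-0.25 to 0.073 with each tumor left out); the smallest adjusted p was 0.496, for *Slc16a3* with DESeq2. The log2 ratio of *Ldha* to *Bsg* was 0.32 by FPKM and -0.28 per kilobase of distinct exon, a scale added after seeing the data, the gene lengths being its only change. Genes called over the whole table, 0 lower and 0 higher with edgeR's quasi-likelihood test, were 43 and 9 with DESeq2, 35 and 5 with edgeR's exact test, and 2 lower with no filter. At an unadjusted p under 0.05, other SLC16 and LDH genes lower were 1 (0 in the test as reported) with library size only and 1 with no filter, partners lower were 0 (1 as reported) with limma-voom, and partners higher (1 as reported) were 2 with DESeq2 and 0 with library size only. With each tumor left out, the counts ranged from 0 to 1 lower and 0 to 1 higher in the SLC16 and LDH list, from 0 to 1 lower and 0 to 2 higher among partners, and from 0 to 1 lower and 2 to 5 higher among hypoxia-inducible genes. The cause of these shifts was not tested. The level of *Slc16a3*, at 14 to 120 counts in a tumor, and the number of tumors limit the precision.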

Other observations

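Several SLC16 carriers differed more between tumors of 1 genotype than between genotypes. *Slc16a12* was at 68.3 CPM in Prmt3f/f replicate 7 and 65.1 CPM in Prmt3LKO replicate 93, while the other 4 tumors lay between 101.8 and 113.4 CPM. *Slc16a10*, a carrier of aromatic amino acids, was at 14.6 and 15.4 CPM in these 2 tumors and between 33.1 and 48.0 CPM in the others. *Pck1* was likewise lowest there, at 1086 and 579.9 CPM against 2448 to 3996 CPM. The hepatocyte genes *Cyp2e1*, for a cytochrome P450, and *Tat*, for tyrosine aminotransferase, were also lowest in these 2 tumors, with *Cyp2e1* at 166.1 and 244.1 CPM in replicates 7 and 93 and 1057 to 1330 CPM in the other 4. Of the other hepatocyte markers, *Cps1* and, by a small margin, *Hnf4a* were lowest there too. *Alb*, *Apoa1*, *Apob*, *Ttr*, *Serpina1a* and *Fgb* did not share this pattern. *Apoa1* and *Fgb* were highest in Prmt3f/f replicate 7, at 20100 and 8124 CPM. *Slc16a10*, *Cyp2e1* and *Tat* were picked out after their values were seen, and the pattern was not tested. Among the members, *Ldhd* was at 56.2 and 54.6 CPM in these 2 tumors, near the 50.4 CPM of Prmt3f/f replicate 66 and below the 97.7 to 102.0 CPM of the other 3, while *Bsg* was highest in them, at 474.3 and 550.0 CPM.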
